A study of Mus musculus with 8 samples.

Results

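The data describe both mature arms of 4 microRNA (miRNA) hairpins, miR-324, miR-340, miR-342 and miR-574, in basal progenitors of the mouse embryonic cortex. The 8 arm miRNAs were taken by name from the 611 mouse miRNAs on the arrays, and 8 of 8 were found. The hairpins lie within protein-coding genes and were chosen by the detection flags of their spots, both arms being above background, so detection itself is a description here and not a finding. Sorted wild-type (WT in the descriptions) progenitors were compared at embryonic day 13 (E13, 4 replicates) and embryonic day 16 (E16, 4 replicates), each replicate on 1 one-colour Agilent array of cyanine-3-labelled total RNA. The design text names 3 litters for each stage, which means that some replicates may come from 1 litter unless litters were pooled. The p-values measure only the spread between these samples. No gate or marker for the sort was given in the sources used.

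A miRNA hairpin is cut by Drosha and Dicer into a short duplex of a 5p and a 3p arm. Argonaute usually keeps 1 arm as the guide and the other is degraded, and the share kept from each arm can differ between tissues. Basal progenitors divide away from the ventricular surface and produce most neurons of the cortex. Both arms start from the same transcript, so a change in transcription alters both, whereas arm choice or stability can alter 1 arm alone.

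The sequences show why the arms are read as separate miRNAs: bases 2 to 8, the seed that pairs with target messages, differ in all 8 and are in capitals. They are the RefSeq mature sequences, written 5′ to 3′.
mmu-miR-324-5p: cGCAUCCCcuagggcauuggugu
mmu-miR-324-3p: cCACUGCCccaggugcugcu
mmu-miR-340-5p: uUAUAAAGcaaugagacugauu
mmu-miR-340-3p: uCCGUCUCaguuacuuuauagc
mmu-miR-342-5p: aGGGGUGCuaucugugauugag
mmu-miR-342-3p: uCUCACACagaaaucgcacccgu
mmu-miR-574-5p: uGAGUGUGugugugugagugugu
mmu-miR-574-3p: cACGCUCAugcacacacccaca
Among the 503 of 611 array miRNAs whose longest probe matched a RefSeq mature sequence, no other miRNA carried any of these 8 seeds. miR-574-5p is an alternation of U and G broken in a pair of places by A. GC content was lowest in miR-340-5p, at 27.3%.

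In RefSeq on GRCm38.p6, Mir324 lies on chromosome 11 from 70012043 to 70012131 on the plus strand. That is inside the span of Acadvl, a mitochondrial acyl-CoA dehydrogenase gene, which is on the minus strand, so the hairpin is antisense to it. Mir340 lies on chromosome 11 from 50069702 to 50069799, inside Rnf130, a ubiquitin ligase gene on the same plus strand. Mir342 lies on chromosome 12 from 108658620 to 108658718, inside Evl, an actin regulator gene of the Ena/VASP family on the same strand. Mir574 lies on chromosome 5 from 64970318 to 64970395, inside Fam114a1 on the same strand and also inside Tlr6, a Toll-like receptor gene on the other strand. Exon bounds were not used here, so whether each hairpin is intronic was not checked, and for miR-324 the spanning gene is not a host on its own strand. Host messages were not measured by these arrays.

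The 75th percentile of the signal, over the 126 probes that the scanner software flagged as well above background (detected) on all arrays, ranged from 162 to 490 on the E13 arrays and from 109 to 748 on the E16 arrays. E16 replicate 4 was the dimmest, with 76 miRNAs detected against 119 to 206 on the other arrays. All 6 listed miRNAs of cortical neural cells were tested, whereas 0 of 7 of blood and microglia, 0 of 2 of endothelium, 0 of 4 of muscle and 0 of 5 of hindbrain and spinal cord were detected on any array. In bulk RNA, fewer cells of a type and less RNA per cell cannot be told apart. Of these 6, miR-92b (-1.59, limma adjusted p = 0.00019) and miR-137 (-1.02, limma adjusted p = 0.026) were lower at E16 and none was higher. However, miR-92b was detected on 4 E13 arrays but only 1 E16 array, and a filter met mainly at E13 favours a lower call. Its E16 mean of log2 -5.94 lay near the floor of -5.96 set for dim signals, so the size and p-value of its fall are not exact. The summed scaled signal of the list ran from 9.79 to 17.3 at E13 and from 11.3 to 19.2 at E16. The E13 arrays all lay in row 2 of their slides and the E16 arrays in row 1, so stage and slide row are confounded and cannot be told apart.

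Signals below are log2 scaled signals, in which 0 is the 75th percentile just described, and a difference is E16 minus E13. A level of 1 probe cannot be set against that of another, so levels are compared only within a miRNA. All 8 members passed the filter of detection on 4 or more arrays, which miR-574-3p met with exactly 4, 3 at E13 and 1 at E16. In the limma fit over 153 tested miRNAs, miR-324-5p, both miR-342 arms and miR-574-3p were lower at E16, none was higher (0 also at an unadjusted p under 0.05) and 4 did not pass the test. Over all tested miRNAs 26.1% were called lower and 7.19% higher, or 33.3% in either direction. The median difference of the members was -0.78 and that of all tested miRNAs -0.40. Which members pass depends on how the arrays are scaled: when the percentile was taken over every mouse probe instead (all-probe scaling), 0 of the 8 passed limma's adjusted threshold, 1 was lower and 1 higher at an unadjusted p under 0.05, and the median of all tested miRNAs moved to 0.42.

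**Figure D1:**
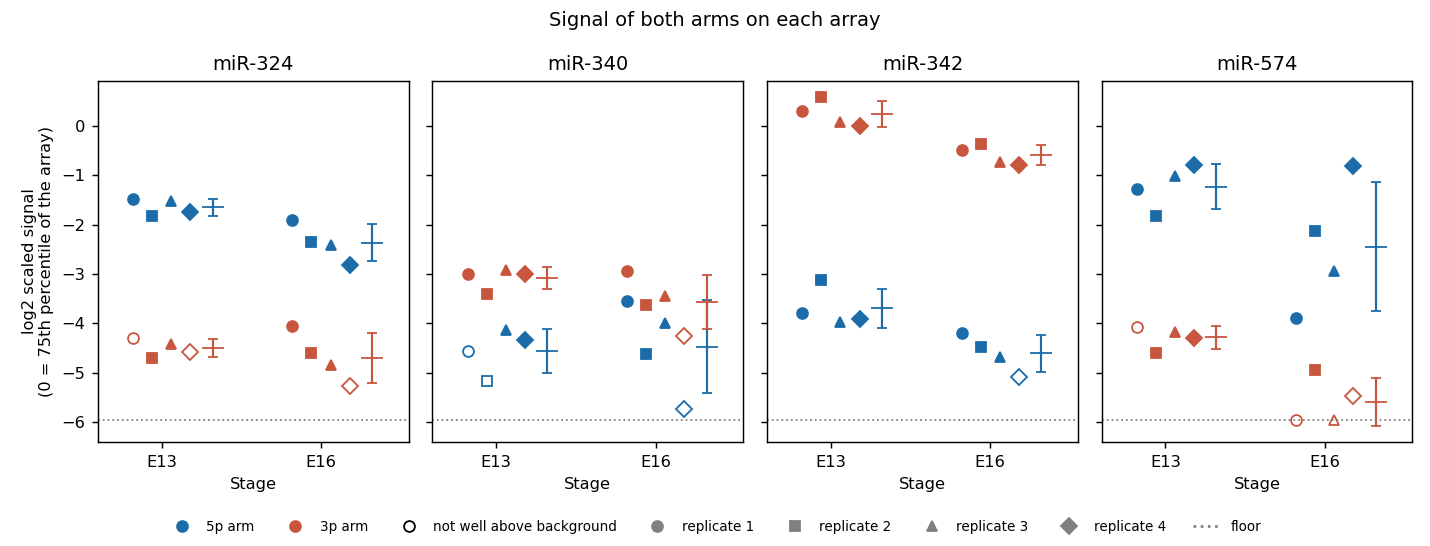
Log2 scaled signal (y axis) of the 5p and 3p arm of each hairpin at E13 and E16 (x axis), 1 point per array, with mean and SD (n = 4) beside each group; open points were not detected and the dotted line is the floor. The miR-342 arms drop together, from means of -3.69 and 0.24 at E13 to -4.61 and -0.59 at E16, while the miR-574-5p points spread widely at E16.

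**Figure D2:**
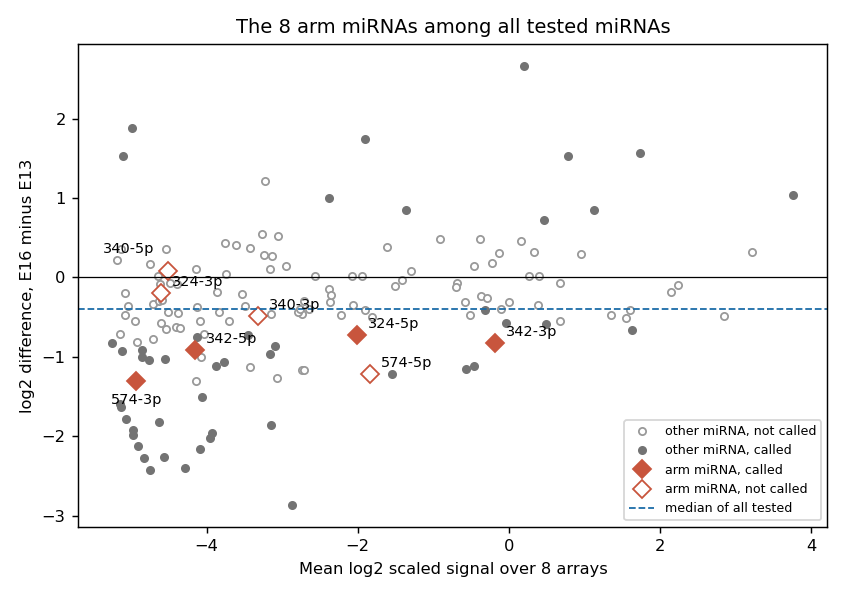
Log2 difference E16 minus E13 (y axis) against the mean log2 scaled signal over 8 arrays (x axis) for the 153 tested miRNAs, with the 8 arm miRNAs as diamonds and filled symbols for limma adjusted p under 0.05. The members lie between -1.30 and 0.084, with a median of -0.78 against -0.40 for all tested miRNAs.

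Both arms of miR-342 fell by E16, and by similar amounts. mmu-miR-342-3p, the arm usually kept and also abundant in immune cells, stood at 0.30, 0.57, 0.087 and -0.012 on E13 replicates 1 to 4 and at -0.48, -0.38, -0.72 and -0.79 on E16 replicates 1 to 4. Every E16 array lay below every E13 array. The means were 0.24 ± 0.26 and -0.59 ± 0.20 (SD, n = 4 each), a 1.78-fold fall (difference -0.83, SE 0.18, limma adjusted p = 0.0061). The call held in 25 of 27 alternatives, some of which change only the test, with differences from -0.99 to -0.70 in those 25. The exceptions were all-probe scaling (-0.0088, limma adjusted p = 0.99) and normexp background correction (-0.65, limma adjusted p = 0.098). Relative to the median of all tested miRNAs the difference was -0.43 in the main setting and -0.070 within slide 3. On the same 8 arrays the 7 blood and microglia miRNAs, which include miR-223 and miR-142-3p, were at the floor, log2 -5.96. The part of immune cells in the miR-342-3p signal was not tested.

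mmu-miR-342-5p, the other arm, stood at -3.78, -3.12, -3.97 and -3.90 at E13 and at -4.19, -4.48, -4.68 and -5.09 at E16. The groups did not overlap, as in 38.6% of all tested miRNAs, and the probe was not detected on E16 replicate 4. It fell 1.88-fold (difference -0.91, SE 0.25, limma adjusted p = 0.022). The call was lost when any of E13 replicates 1 and 2 and E16 replicates 3 and 4 was left out (-0.94, -0.72, -0.89 and -0.69, limma adjusted p between 0.054 and 0.061). It was also lost with all-probe scaling (-0.094), quantile normalization (-0.33), normexp (-0.33), the mean of all probes (-0.22) and the second brightest probe (0.025). No filter and slide 2 alone (-1.12) lost the call too.

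The values of miR-342-5p rest on 1 of its 4 probes, which is why they are shown. The probes are nested DNA complements of the 3′ part of the arm, and capitals mark the bases that each has beyond the shortest.
16-base probe: ctcaatcacagatagc
17-base probe: ctcaatcacagatagcA
18-base probe: ctcaatcacagatagcAC
19-base probe: ctcaatcacagatagcACC
The 19-base probe, which pairs with bases 4 to 22 of the miRNA, was detected on 7 arrays, with unscaled signals up to 36.4. The 16-base, 17-base and 18-base probes were detected on 0 arrays, and their highest unscaled signals were -0.49, 1.89 and 5.30. By contrast, both probes of miR-342-3p, of 16 and 17 bases, were detected on all 8 arrays.

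The arms were next compared on each array as the log2 signal of 5p minus that of 3p, from which an array's scaling factor cancels where neither arm is at the floor. Its value mixes arm abundance with probe response, so only its change between stages was tested, with limma over the 17 hairpins with both arms tested, of 167 arm pairs on the array. Of these 17, 23.5% changed. For miR-342 the arm difference was -4.08, -3.70, -4.06 and -3.89 at E13 and -3.71, -4.10, -3.95 and -4.30 at E16. The E13 values lay within the range of the E16 values except for E13 replicate 2, at the top, and the change was -0.085 with a 95% confidence interval of -0.47 to 0.30 (limma adjusted p = 0.71). The change was 0.0090 without E16 replicate 4, and it was 0.42 under quantile normalization. It passed in the opposite direction with the mean of all probes (0.60, limma adjusted p = 0.0053) and the second brightest probe (0.84, limma adjusted p = 0.014), which draw on the 5p probes detected on 0 arrays.

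**Figure D3:**
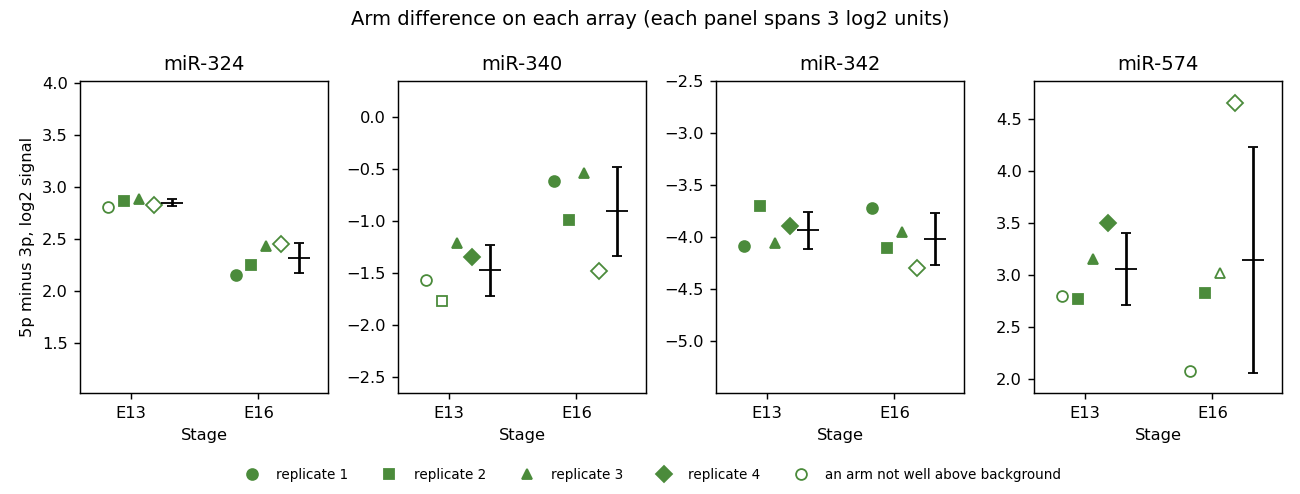
Log2 signal of the 5p arm minus that of the 3p arm (y axis) on each array at E13 and E16 (x axis) for the 4 hairpins, with mean and SD (n = 4); open points have an arm that was not detected, and for miR-574 the points of E16 replicates 1 and 3 are lower bounds. For miR-324 the 4 E13 points lie between 2.81 and 2.89 and the 4 E16 points between 2.15 and 2.45.

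The arms of miR-324 changed unequally. miR-324-5p, known to repress the Hedgehog effectors Smo and Gli1 in neural progenitors, fell by E16, and miR-324-3p did not pass the test. mmu-miR-324-5p stood at -1.49, -1.83, -1.53 and -1.75 at E13 and at -1.90, -2.35, -2.42 and -2.82 at E16, without overlap. The fall was 1.65-fold (difference -0.72, SE 0.21, limma adjusted p = 0.026). It was -0.32 relative to the median of all tested miRNAs, and the difference itself turned to 0.098 with all-probe scaling. The call was lost when any of E13 replicates 1, 3 and 4 and E16 replicates 2 and 3 was left out (-0.66, -0.68, -0.76, -0.73 and -0.70), within slide 2 (-0.72, limma adjusted p = 0.062), with quantile normalization (-0.51, limma adjusted p = 0.056), normexp (-0.38), the second probe (-0.74) and no filter.

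mmu-miR-324-3p stood at -4.30, -4.70, -4.42 and -4.58 at E13 and at -4.06, -4.60, -4.85 and -5.27 at E16. The groups overlapped, with E16 replicate 1 the highest and E16 replicate 4 the lowest of all arrays. The difference was -0.19 (95% confidence interval -0.77 to 0.38), which turned to 0.63 with all-probe scaling and to 0.47 under quantile normalization. A slide block gave -0.44, the total signal -0.56 and slide 3 alone -0.77 (limma adjusted p = 0.018), where it was not detected on the lone E16 array. Its probe was detected on 2 of the E13 arrays and 3 of the E16 arrays, and its second probe, 1 base shorter, on 0.

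The miR-324 arm difference was 2.81, 2.87, 2.89 and 2.83 at E13 and 2.15, 2.25, 2.43 and 2.45 at E16. The groups did not overlap, as in 29.4% of the 17 hairpins. The E13 arrays lay close together, although the unscaled 5p signal ran from 57.9 to 169.9 on them. As a ratio of the unscaled signals of the 2 probes, 5p over 3p was 7.04, 7.31, 7.40 and 7.12 at E13 and 4.45, 4.77, 5.40 and 5.47 at E16. The arm difference fell by 0.53 (SE 0.12, 95% confidence interval -0.81 to -0.24, limma adjusted p = 0.010), that is, 5p over 3p was 1.44-fold lower at E16. Because scaling cancels, the arm difference does not show which arm moved. With all-probe scaling its change was the same, while the 5p difference was 0.098 and the 3p difference 0.63. Its SD over the E13 arrays was 0.034, against 0.17 for the 5p arm and 0.18 for the 3p arm taken alone.

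Of the alternatives run, 18 could change the value of the miR-324 arm difference, and it stayed negative in these 18 and passed in 14. The passes with the mean of all probes (-0.63) and the second brightest probe (-0.74) draw on a 3p probe detected on 0 arrays. That probe was at the floor on all 8 arrays, so the value of -0.74 is the change of the 5p arm alone. The largest fall was under quantile normalization (-0.98, limma adjusted p = 0.0025). It was -0.50 within slide 2, -0.41 within slide 3, where E16 replicate 4 is the only E16 array and is assumed to vary like the others, and -0.46 with the slide as a block. With the other miR-324-5p probe it was -0.55 (limma adjusted p = 0.0079). The call was lost with normexp, whose offset of 50 exceeds every unscaled 3p signal (-0.26, limma adjusted p = 0.58), with the total signal per miRNA (-0.35), without E16 replicate 2 (-0.50, limma adjusted p = 0.051), with the replicate number as a block (limma adjusted p = 0.055), and over only the 2 E13 and 3 E16 arrays with both arms detected (-0.60, limma adjusted p = 0.055). The exact permutation test, two-sided over 70 assignments, gave p = 0.029, the smallest it allows, and 0.11 adjusted over the 4 hairpins.

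For miR-340, neither arm passed the test, and nor did the change of the difference between them. mmu-miR-340-5p, an arm known to restrain growth of tumour cells, stood at -4.57, -5.17, -4.14 and -4.34 at E13 and at -3.54, -4.62, -3.99 and -5.73 at E16. The E16 arrays held both the highest and the lowest of the 8 values, with detection on 2 of the E13 arrays and 3 of the E16 arrays. The difference was 0.084 (95% confidence interval -0.93 to 1.10), and it turned to -0.26 with the slide as a block and to -1.49 within slide 3, where E16 replicate 4 stands alone for its stage. mmu-miR-340-3p stood at -3.01, -3.40, -2.92 and -2.999 at E13 and at -2.93, -3.63, -3.45 and -4.25 at E16. The difference was -0.48 (95% confidence interval -1.10 to 0.13), 0.34 with all-probe scaling, -0.69 without E16 replicate 1 (limma adjusted p = 0.047) and -1.29 within slide 3, where the probe was not detected on the lone E16 array.

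The miR-340 arm difference was -1.56, -1.77, -1.21 and -1.34 at E13 and -0.61, -0.99, -0.54 and -1.48 at E16. Only E16 replicate 4, on which neither arm was detected, overlapped the E13 arrays. The rise of 0.57 (95% confidence interval 0.034 to 1.10) did not pass over the 17 hairpins (limma adjusted p = 0.084). The rise passed in 3 of 26 alternatives. It was 0.76 without E16 replicate 4 (limma adjusted p = 0.0093), 0.90 within slide 2 (limma adjusted p = 0.026) and 0.77 with quantile normalization (limma adjusted p = 0.032). Within slide 3 the change was -0.20, with E16 replicate 4 again the lone array of its stage.

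**Figure D4:**
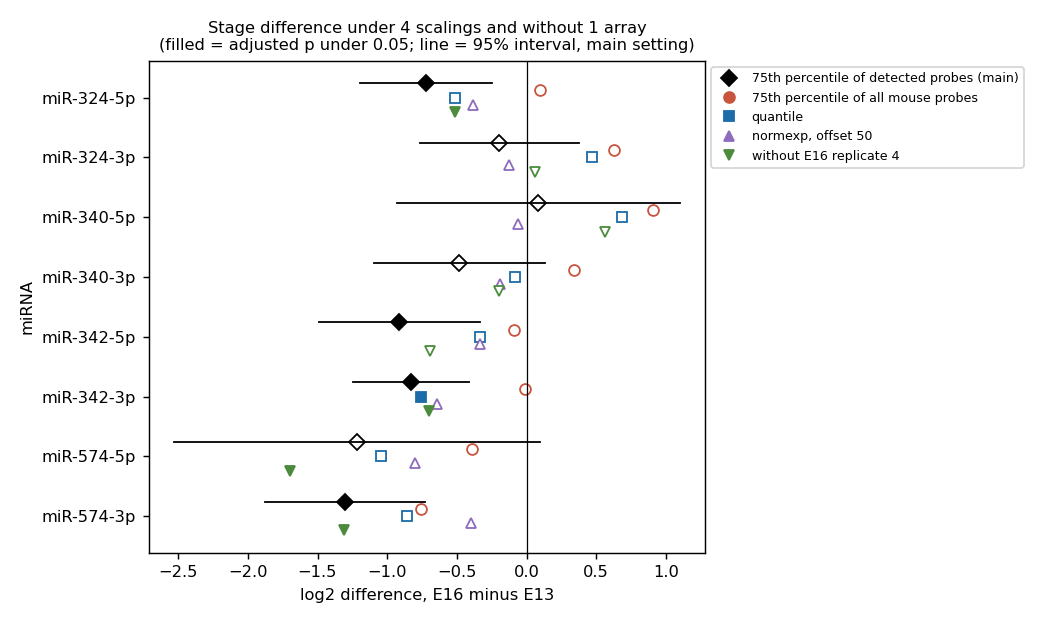
Log2 difference E16 minus E13 (x axis) of each arm miRNA (y axis) under 4 scalings and without E16 replicate 4; filled symbols have limma adjusted p under 0.05 and black lines are 95% confidence intervals in the main setting. The all-probe scaling shifts the 8 values to the right, from -0.83 to -0.0088 for miR-342-3p, and leaves none filled.

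For miR-574, the 3p arm passed the test and the 5p arm, which varied widely between the E16 arrays, did not. mmu-miR-574-5p, whose GU-rich sequence is known to be a ligand of Toll-like receptors, stood at -1.27, -1.83, -1.02 and -0.79 at E13 and at -3.89, -2.13, -2.94 and -0.82 at E16. E16 replicates 1, 2 and 3 lay below every E13 array, and E16 replicate 4 lay among the highest E13 values. The SD was 0.45 at E13 and 1.30 at E16 (n = 4 each). The difference of -1.22 (95% confidence interval -2.53 to 0.10) did not pass the test (limma adjusted p = 0.14). Without E16 replicate 4 it was -1.69 (limma adjusted p = 0.013), and within slide 3 it was 0.087.

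mmu-miR-574-3p stood at -4.07, -4.60, -4.18 and -4.29 at E13 and at -5.96, -4.95, -5.96 and -5.47 at E16, without overlap. E16 replicates 1 and 3 were at the floor of -5.96, and 3 of the E13 arrays but only 1 of the E16 arrays detected the probe. Its test passed (difference -1.30, SE 0.25, limma adjusted p = 0.0031), but with values at the floor the size of the fall is not exact. The floor also narrows the E16 spread on which the SE and p-value rest. The filter was met mainly through the E13 arrays, which favours a lower call at E16. Over only the arrays that detected it, which leave E16 replicate 2 alone and assume that this array varies like the others, the difference was -0.60 (limma adjusted p = 0.20). The call was also lost within slide 2 (-1.12), without E13 replicate 1 (-1.01), and with all-probe scaling (-0.76), quantile normalization (-0.86), normexp (-0.40) and the second brightest probe (-0.88). Without E13 replicate 2, 3 or 4 or E16 replicate 2 it fell short of the filter and was not tested. The miR-574 arm difference was 2.80, 2.77, 3.15 and 3.5 at E13 and 2.07, 2.83, 3.02 and 4.65 at E16. On E16 replicates 1 and 3 the floor of the 3p arm sets these values, which are lower bounds there. No size is therefore given for the change in the main setting, and its test did not pass (limma adjusted p = 0.92). As a ratio of unscaled signals, which have no floor, 5p over 3p was 6.97, 6.80, 8.91 and 11.3 at E13 and 6.80, 7.09, 14.1 and 25.2 at E16. The groups overlapped, and the 3p arm was not detected on E16 replicates 1, 3 and 4.

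The probe of miR-574-5p holds an alternating run, shown here because other probes share it. Capitals mark the longest run of alternating bases.
miR-574-5p probe: acacactCACACACACAC
miR-574-3p probe: tgtggGTGTGTGcat
Of the 153 tested miRNAs, 9 including miR-574-5p were read by a probe with such a run of at least 8 bases, a rule set after the values were seen. In 8 of the 9, E16 replicate 1 was the lowest and E16 replicate 4 the highest of the E16 arrays. These 9 are not independent cases. They include miR-466f-3p, miR-466g and miR-466i, and also miR-669f and miR-669n, which are related by name. Among the 144 other tested miRNAs replicate 1 was the lowest in 26 and replicate 4 the highest in 20. The difference between these arrays, replicate 4 minus replicate 1, had a median of 2.90 over the 9 and of -0.58 over the others, and it was 3.07 for miR-574-5p. The exception among the 9 was miR-672, at -0.26. E16 replicate 1 was the only array on slide 1, E16 replicates 2 and 3 were on slide 2, and E16 replicate 4 was the only E16 array on slide 3. The parts of the shared probe sequence and of the slide in the spread of miR-574-5p were not tested.

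**Figure D5:**
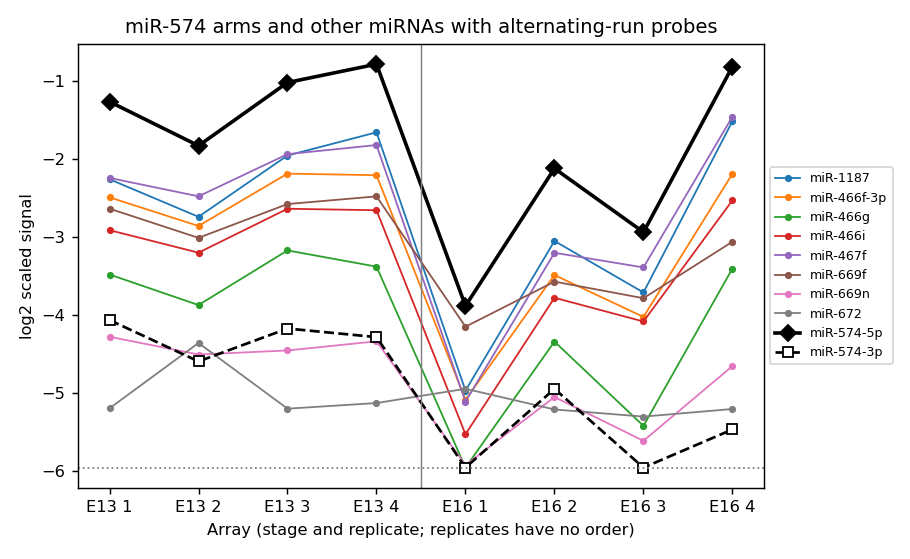
Log2 scaled signal (y axis) on each array (x axis) of miR-574-5p (thick line), miR-574-3p (dashed) and the 8 other miRNAs with a probe holding an alternating run of at least 8 bases; the dotted line is the floor and lines only join the values of 1 miRNA. At E16, miR-574-5p runs from -3.89 on replicate 1 to -0.82 on replicate 4, and 7 of the 8 others share its lowest and highest array.

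The tested miRNAs most like each arm were found by the mean absolute gap over the 8 arrays, after each profile was centred on its own mean. For miR-574-5p these were miR-1187 (gap 0.088), miR-466f-3p (0.11) and miR-466i (0.16), all among the 9 with run-bearing probes, against a median gap of 0.88 over 152 miRNAs. miR-574-3p was closest to miR-669n, miR-669f and miR-377 (gaps 0.25 to 0.28), and the gap to its own 5p arm was 0.50. Of these, miR-669n and miR-669f are also among the 9, and the miR-574-3p probe itself holds a run of 7 bases. For miR-342-5p the closest of the 152 was its own 3p arm (gap 0.16), followed by miR-324-5p and miR-92a, and for miR-342-3p the order was miR-92a (0.14), its 5p arm and miR-103. miR-324-5p was closest to miR-532-5p, miR-210 and miR-598 (0.12 to 0.14) and miR-324-3p to miR-151-5p, miR-140* and miR-25 (0.14 to 0.15), and the gap between the 2 arms was 0.26. miR-340-5p was closest to miR-20a*, miR-218 and miR-101b (0.12 to 0.13) and miR-340-3p to miR-872, miR-500 and miR-219 (0.085 to 0.091), with 0.36 between the arms. All profiles share the same 8 arrays.

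Other miRNAs of hairpins in protein-coding genes were listed from general knowledge, 57 hairpin names of which 55 had a locus inside the span of a protein-coding gene in RefSeq. Of the 42 tested miRNAs of these hairpins, 7 (16.7%) were lower at E16, 1 (2.38%) was higher and 34 did not pass the test, beside 26.1% lower and 7.19% higher over all tested miRNAs. Their median difference was -0.30, against -0.40 over all tested miRNAs.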

How the data were processed

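Total RNA of sorted basal progenitors was hybridised to one-colour Agilent miRNA arrays, 1 array per replicate, and stage and replicate were taken from the titles. Per the file headers and the submitters' processing notes, the authors read the arrays with Agilent Feature Extraction 10.7.3.1. The deposited scanner files hold, per spot, mean, background and processed intensity and a total signal per miRNA, not scaled between arrays, beside other columns, flags of 0 or 1. The deposited value table holds log2 values, which served as an alternative, and how the authors made them is not stated.

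Outlier spots were left out, and the other spots of a probe were averaged. A probe was detected when a share of at least 0.5 of its spots was well above background. Signals were scaled per array to the 75th percentile over 126 probes detected on all arrays, floored at percentile 1 of detected signals (log2 -5.96), and log2 transformed. The brightest probe stood for its miRNA. limma 3.58.1 in R 4.3.3 (lmFit, eBayes, two-sided, Benjamini-Hochberg, threshold 0.05) was run on the 153 miRNAs detected on at least 4 arrays, and on the 17 arm differences. On simulated data it recovered 71.8% of changes of 1 log2 unit over the 153 miRNAs and 74.8% over the 17 arm differences. The number of arrays limits the precision. The members and lists were chosen with earlier results of these data known. Named besides the 8 members are the 3 miRNAs most like each, hairpins whose arm difference changed, and marker miRNAs, and others as chosen after their values were seen. Alternatives varied the scaling, background correction, probe, filter, floor, slide and replicate blocks, and arrays left out.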

Additional observations from a re-analysis of the deposited data

How the results depend on the processing

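Each result was recomputed with 1 choice changed. The number of members lower at E16, 4 in the main setting, was 0 under all-probe scaling and under normexp, 1 with quantile normalization, the second brightest probe or within slide 2, 2 with no filter, 2 in the deposited value table and with detection on all 8 arrays, each of which tests only 3 members, and 7 within slide 3. Without 1 array it ran from 1 to 5. No member was higher at the adjusted threshold under any alternative, and 1 was at an unadjusted p under all-probe scaling and 1 under quantile normalization. Of all tested miRNAs, 40 lower and 11 higher in the main setting, 16 and 47 were called under all-probe scaling and 2 and 5 with normexp, 19 and 7 with the second brightest probe. Lower calls were 11 in the deposited value table, 10 with detection on all 8 arrays, 67 with detection on at least 1, 25 within slide 2 and 88 within slide 3, and higher calls were 20 with quantile normalization. Without 1 array lower calls ran from 22 to 46 and higher calls from 8 to 23. Changed arm differences, 4 of 17, were 7 with quantile normalization, 0 with normexp, 10 with the probe mean, 9 with the second brightest probe, 1 with the total signal per miRNA, 0 of 4 in the deposited value table, 7 of 29 with detection on at least 1 array, 25 of 167 with no filter, 9 within slide 2, 9 within slide 3 and 0 to 8 without 1 array. At an unadjusted limma p under 0.05, members lower were 1 under all-probe scaling and 1 under normexp, and changed arm differences 2 under normexp, 1 in the deposited table, and 4 when E16 replicate 2, whose omission left 0, was dropped.

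Signs turned under all-probe scaling for miR-324-5p (0.098), miR-324-3p (0.63), miR-340-3p (0.34) and the median of all tested miRNAs (0.42). miR-324-3p also turned with quantile normalization (0.47) and over detected arrays only (0.055). miR-340-5p turned with normexp (-0.059), total signal (-0.50), a slide block (-0.26) and within slide 3 (-1.49), miR-342-5p with the second brightest probe (0.025), which sat at or near the floor, and miR-574-5p within slide 3 (0.087). Without 1 array, miR-324-3p ran from -0.40 to 0.059 and miR-340-5p from -0.21 to 0.56. The cause was not tested except where named.

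The miR-324 arm change was -0.98 with quantile normalization, -0.26 with normexp, -0.35 with the total signal, -0.53 with the exact permutation test, -0.60 over detected arrays and -0.57 to -0.47 without 1 array. The miR-340 change was 0.77 with quantile normalization, 0.90 within slide 2, -0.20 within slide 3 and 0.44 to 0.76 without 1 array. The miR-342 change was 0.42 with quantile normalization, 0.31 with normexp, 0.60 with the probe mean, 0.84 with the second brightest probe, 0.0090 over detected arrays and -0.19 to 0.0090 without 1 array. The miR-574 change was -0.18 with quantile normalization, -0.40 with normexp, -0.055 with the probe mean, -0.25 with the second brightest probe, -0.10 with the floor at percentile 5, 1.09 with the total signal, 0.61 with a slide block, 0.37 under all-probe scaling, 1.33 within slide 3, -0.31 over detected arrays and -0.39 to 0.45 without 1 array. Floored values of the 3p arm can enter these miR-574 changes, so their sizes are not exact. The probes of miR-342-5p and miR-324-3p other than the brightest were not detected on any array and sat at or near the floor. That sets the values with the mean of all probes or the second brightest probe.

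With the replicate number as a block, the miR-324 arm change of -0.53 lost its call, 1 arm difference in place of 4 was called, and no other call of a member or arm pair of these hairpins changed. Same-numbered arrays deviated with correlations from -0.15 to 0.27, and nothing in the labels pairs them. The use of detected arrays only, and of other probe pairs, was chosen after seeing the data.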

Other observations

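Besides miR-324, 3 of the 17 hairpins had an arm difference that changed between the stages. For miR-7a, abundant in neurons and endocrine cells, the unstarred minus the starred arm fell by 1.5 (limma adjusted p = 0.0014), with differences of -1.86 for miR-7a and -0.36 for miR-7a*. For miR-30a it rose by 0.63 and for miR-30e by 0.57 (limma adjusted p = 0.010 each). The E13 and E16 arrays did not overlap in any of these 3 hairpins, nor in miR-9, whose change of -0.42 did not pass (limma adjusted p = 0.084). Arms were paired by name, and whether miR-7a and miR-7a* come from the same locus only was not tested. The mean log2 scaled signal of miR-7a* was -5.04, not far above the floor of -5.96. The sizes of its difference and of the miR-7a arm change may therefore not be exact.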
